A study of Aedes aegypti and Anopheles culicifacies with 47 samples.

Results

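Gene expression at midnight (12am) was set against noon (12pm) in the olfactory tissue of *Anopheles culicifacies*, a mosquito that bites by night. The comparison holds 5 libraries, 2 of 12am (replicates 2 and 3) and 3 of 12pm (replicates 1, 2 and 3), chosen by the species, tissue and clock time in their titles, out of 47 samples listed in the series. Each library came from antennae, maxillary palps, proboscis and labium dissected together from wild-type adult females 5 to 6 days old, reared with 12 h light and 12 h dark in each day. The hour at which the lights came on is not given in the sources used here. All the females are described as one cohort, the replicates are called biological, and how many mosquitoes went into a library is not given. Of 3 libraries listed for 12am, replicate 1 was not analysed here. The 2 libraries of 6pm and the single library of 6am from the same tissue gave the level of a gene outside the compared times. Those of 6pm also served in estimating the spread between libraries. The 6am library was in the fit but, alone at its clock time, adds nothing to that spread.

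Antennae and palps carry the sensory hairs in which olfactory neurons meet odours. Odorant-binding proteins in the fluid around the neurons carry odours to membrane receptors, and enzymes in and around that fluid break them down. Insect tissues, antennae included, hold a circadian clock, a feedback loop in which transcription factors switch on their own repressors, and the output of this loop moves many transcripts up and down over the day. The study asked how such daily rhythms differ between a night-biting and a day-biting mosquito. The count files give ACUA identifiers and do not pair them with gene names, so no clock gene, receptor or binding protein could be singled out, the tissue could not be checked against its marker genes, and at most 2 identifiers are given per direction.

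The 12am libraries were shallower than those of 12pm and differed from each other. Reads assigned to genes numbered 1193151 in 12am replicate 2 and 1474083 in 12am replicate 3, against 2926823, 2992698 and 2555461 in 12pm replicates 1, 2 and 3. Reads outside annotated genes took 69.2% and 62.0% of the reads in 12am replicates 2 and 3, against 59.0%, 59.0% and 53.8% at 12pm. Neither measure overlapped between 12am and 12pm. An exact permutation test over the 10 ways to split 5 libraries into 2 and 3 cannot give a one-sided p below 0.1, so none was run on these values. Low depth was not particular to midnight, since 6pm replicates 1 and 3 of the tissue held 1298324 and 1205439 reads in genes. Their reads outside annotated genes took 54.9% and 62.1%.

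At equal depth the 12am libraries lay on opposite sides of noon. Thinned at random to 1166422 reads each, 12am replicate 2 held 12826 genes with a count and 12am replicate 3 held 10499, against 11038, 10958 and 11812 in 12pm replicates 1 to 3. Genes with 10 or more counts numbered 9623 and 6209 in 12am replicates 2 and 3, against 6818, 6508 and 7296 at 12pm. Thus 12am replicate 2 was above all 3 noon libraries and 12am replicate 3 below all 3, on both measures. Without thinning, of 1423 genes without a count in any 12pm library, 272 had one in 12am replicate 2 and 66 in 12am replicate 3. After thinning, it took 212 and 129 genes to make up 50% of the counts of 12am replicates 2 and 3, against 170, 144 and 181 genes at 12pm. The gene with the most counts in every one of the 5 libraries, ACUA018903, took 6.48% and 10.7% of the counts in 12am replicates 2 and 3, against 6.41%, 10.4% and 8.57% in 12pm replicates 1, 2 and 3.

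**Figure D1:**
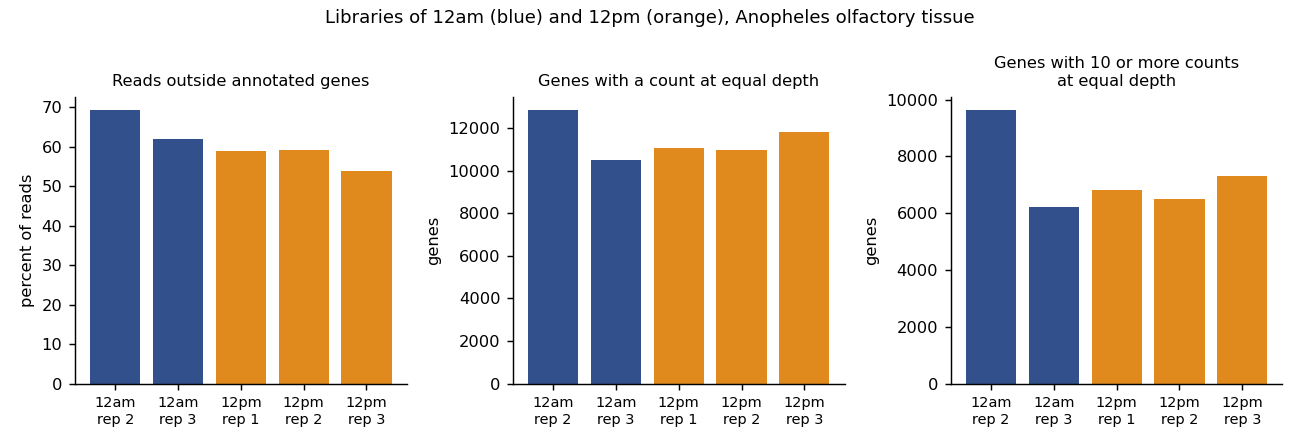
Bars give, for each library of 12am (blue) and 12pm (orange), the percent of reads outside annotated genes, the number of genes with a count and the number with 10 or more counts, the last 2 after thinning to 1166422 reads. In both gene panels 12am replicate 2 stands above and 12am replicate 3 below all 3 libraries of 12pm.

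The correlation between the 2 midnight libraries was low beside that between noon libraries. Across 8612 genes averaging 10 counts or more, the Pearson correlation of log2(CPM + 1), where CPM is a count per 1000000 reads in genes with no further scaling, was 0.712 between the 12am libraries and 0.899 to 0.967 between the 3 pairs of 12pm libraries. It was 0.729, 0.737 and 0.802 between 12am replicate 2 and 12pm replicates 1, 2 and 3. It was 0.942, 0.943 and 0.844 between 12am replicate 3 and the same libraries. Across the 4239 genes averaging 50 counts or more, the 12am libraries correlated at 0.828, within the range of each with noon, 0.823 to 0.841 for 12am replicate 2 and 0.816 to 0.938 for 12am replicate 3. These are correlations across genes, which are not independent replicates, and they are given as a description. With the 6pm libraries, 12am replicate 2 reached 0.833 and 0.878, above its values with noon, and 12am replicate 3 reached 0.833 and 0.871. With the 7 brain libraries of the species, across genes averaging 10 counts or more in all 15 libraries, the values were 0.310 to 0.419 for 12am replicate 2 and 0.294 to 0.486 for 12am replicate 3, against 0.280 to 0.514 for the 12pm libraries.

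Expressed as numbers of genes, the gap between the midnight libraries was wide. Among 7629 genes averaging 10 counts or more after thinning, and with each pair centred on its median difference, 16.4% of genes differed by over 4 times between the 12am libraries, against 1.15 to 3.97% between 12pm libraries. Between 12am replicate 2 and the 12pm libraries the share was 6.83 to 14.7%. Between 12am replicate 3 and the 12pm libraries it was 2.14 to 8.18%.

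With both midnight libraries in the model, 16 of 10890 genes tested differed between 12am and 12pm, 10 higher and 6 lower at 12am (edgeR quasi-likelihood test, Benjamini-Hochberg adjusted p under 0.05). That is 0.147% of the genes tested, 0.0918% higher and 0.0551% lower, and 801 genes (7.36%) had an unadjusted p under 0.05. In all 16 the 12am libraries lay outside the range of the 12pm libraries. Over all genes tested, both 12am libraries were above all 3 libraries of 12pm for 737 genes (6.77%) and below them for 1313 genes (12.1%). Fewer cells of a type and less RNA per cell cannot be told apart in these pooled tissues. The count of 16 became 41 when 12am replicate 2 was left out and 1890 when 12am replicate 3 was. Dropping 6pm replicate 1 gave 4 genes, dropping 6pm replicate 3 gave 5, and 4 remained past the threshold when only the 5 libraries of 12am and 12pm were fitted.

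The number and balance of calls moved with scaling and test. The fit scaled libraries by trimmed mean of M-values (TMM), with a factor of 1.56 for 12am replicate 2 and 0.799 for 12am replicate 3, against 0.945, 0.854 and 1.06 for 12pm replicates 1, 2 and 3. The median log2 change over all genes was 0.09 with this scaling, 0.25 with DESeq2 size factors and 0.33 with reads in genes alone. Without the TMM factor 46 genes (0.422%) were called, 19 higher (0.174%) and 27 lower (0.248%) at 12am, with all 16 among them. With DESeq2 size factors inside edgeR 22 were called, 15 higher and 7 lower, again with all 16 among them. The DESeq2 test, which changes the model as well as the scaling, called 94, 29 higher and 65 lower at 12am, with 14 of the 16 among them.

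Of the genes higher at midnight, ACUA013178 changed most. After TMM scaling, which holds for all CPM values of single olfactory genes given here, it stood at 161 and 509 CPM in 12am replicates 2 and 3, against 17.5, 14.1 and 22.7 CPM in 12pm replicates 1, 2 and 3. Both midnight values were several times the highest noon value, although they differed from each other by 3.17 times. Without the TMM factor the midnight values were 249 and 406 CPM, 1.63 times apart. The log2 change was 4.20 (SE 0.53, edgeR adjusted p = 0.000333), with means of 335 ± 246 CPM at 12am (SD, n = 2) and 18.1 ± 4.35 CPM at 12pm (SD, n = 3). It passed in all 20 alternatives, with a log2 change of 3.13 to 4.81.

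ACUA013994 was more even between the midnight libraries. It stood at 80.5 and 114 CPM in 12am replicates 2 and 3, against 7.07, 7.25 and 5.30 CPM in 12pm replicates 1, 2 and 3. The log2 change was 3.88 (SE 0.48, edgeR adjusted p = 0.000333), from 146 and 131 counts at 12am against 19, 18 and 14 counts at 12pm. It passed in the 19 alternatives that tested it. Its line lay within 1024 bytes before an overwritten stretch in at least 1 of the 15 *Anopheles* files, where single altered characters occur.

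ACUA012491 had the largest fall among the genes called. It stood at 20.96 and 1.75 CPM in 12am replicates 2 and 3 (38 and 2 counts), against 1044, 1241 and 1655 CPM in 12pm replicates 1, 2 and 3. Midnight and noon were apart by well over an order of magnitude in every pair of libraries. The log2 change was -6.77 (SE 0.80, edgeR adjusted p = 0.000333). It was -5.97 with 12am replicate 2 as the midnight library and -9.51 with 12am replicate 3, where 2 counts were left at 12am. It passed in all 20 alternatives.

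ACUA019003 was also lower at midnight, at 2.76 and 5.24 CPM in 12am replicates 2 and 3 (5 and 6 counts), against 43.6, 57.2 and 57.2 CPM in 12pm replicates 1, 2 and 3. The groups did not overlap, and the log2 change was -3.75 (SE 0.60, edgeR adjusted p = 0.00743). Few counts stood behind the midnight values. The call was lost in the fit of the 5 libraries alone (adjusted p = 0.0782), without 6pm replicate 1 (0.0598), against a log2 change of 1 (0.0541) and with limma's library weights (0.857), and the log2 change kept its sign in each. DESeq2 gave it a log2 change of -3.61 and no adjusted p, and it passed in the other 15 alternatives.

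**Figure D2:**
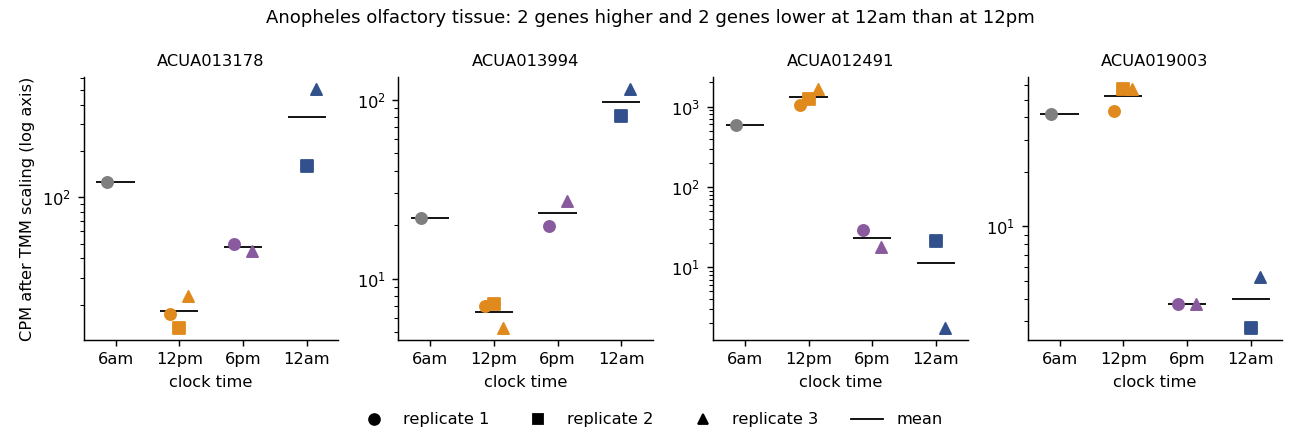
Each panel shows 1 gene in all 8 olfactory libraries in clock order, as CPM after TMM scaling on a log axis, with bars at the means. ACUA013178 and ACUA013994 are highest in the 12am libraries, and ACUA012491 and ACUA019003 are low at both 6pm and 12am.

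The other 8 genes that rose had log2 changes of 2.49 to 3.29 and edgeR adjusted p of 0.00743 to 0.0312. Their means were 36.2 to 4908 CPM at 12am and 4.79 to 756 CPM at 12pm. The most abundant of them stood at 4188 and 5628 CPM in 12am replicates 2 and 3, against 341, 632 and 1294 CPM in 12pm replicates 1, 2 and 3. The other 4 genes that fell had log2 changes of -3.10 to -2.77 and edgeR adjusted p of 0.0109 to 0.0491. Their means were 16.2 to 1433 CPM at 12am and 108 to 12290 CPM at 12pm. The most abundant of them stood at 811 and 2055 CPM in 12am replicates 2 and 3, against 13722, 13717 and 9431 CPM in 12pm replicates 1, 2 and 3. Both of these abundant genes were near the floor in brain, at 1.06 and 1.25 CPM on average at noon. All 16 genes kept their direction in every alternative that gave a value, and passed in 10 to 20 of these.

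**Figure D3:**
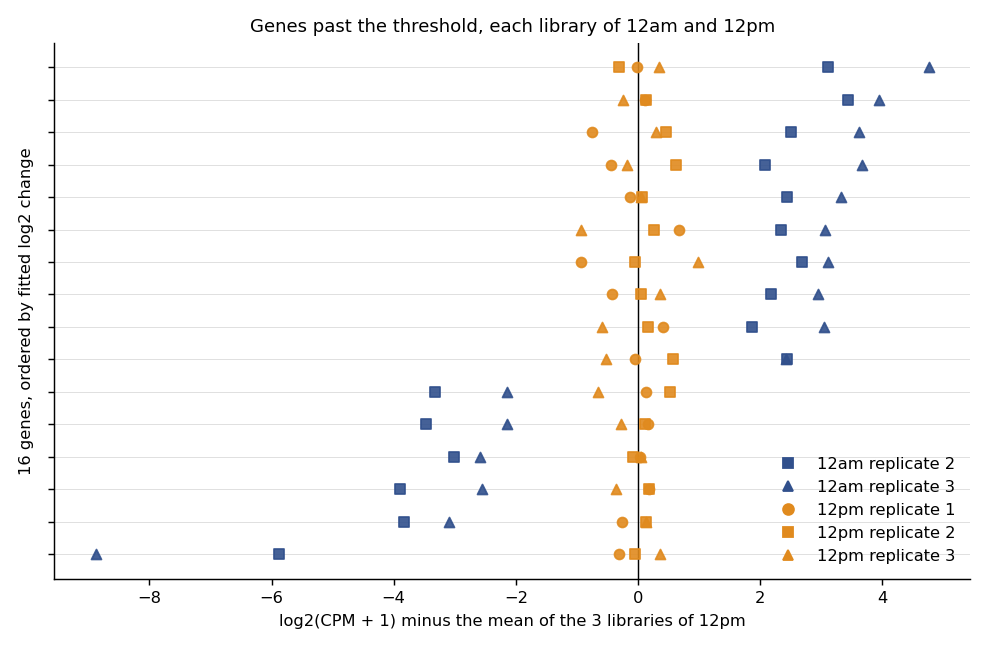
Points show the 16 called genes, 1 per line, as log2(CPM + 1) in each 12am (blue) and 12pm (orange) library minus the mean of the 12pm libraries. The 12am points lie outside the 12pm points on each line, 10 genes to the right and 6 to the left.

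Which midnight library stood farther from noon depended on the scaling. With TMM scaling 12am replicate 3 had the higher value for 9 of the 10 genes that rose and for 5 of the 6 that fell. Without the TMM factor it had the higher value for 4 of the 10 and for 3 of the 6.

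Not all 16 genes had their extreme at midnight. By the mean of each of the 4 clock times, 4 of the 10 genes that were higher at 12am than at 12pm had their highest level at 12am, 5 at 6pm and 1 in the single 6am library. Of the 6 genes that were lower at 12am, 2 had their lowest level at 12am and 4 at 6pm. ACUA013178 reached 127 CPM in the 6am library and stood at 49.4 and 45.0 CPM in 6pm replicates 1 and 3, between its noon and midnight levels. ACUA013994 was likewise between them, with 21.7 CPM at 6am, and 19.6 and 27.2 CPM at 6pm. ACUA012491 had 593 CPM at 6am, and was already down to 28.9 and 17.8 CPM at 6pm. ACUA019003 had 41.6 CPM at 6am, and 3.72 and 3.75 CPM at 6pm, within the range of its midnight values. The most abundant gene that rose was at 5697 and 6749 CPM at 6pm, above midnight, and the most abundant gene that fell was at 1109 and 1222 CPM at 6pm, within the midnight range.

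Brain libraries of the species, which share no library with the olfactory comparison, were read for the same 16 genes. They cover 6am, 12pm and 6pm and no midnight library, so 6pm was compared with 12pm there. Of the 16 genes, 13 passed the filter on low counts in brain. All 8 of those that rose at midnight in olfactory tissue had a positive brain log2 change, with a median of 2.29, and 6 passed as higher at 6pm (edgeR adjusted p under 0.05). All 5 of those that fell had a negative one, with a median of -4.76, and 2 passed as lower at 6pm. Over all 9908 genes tested in brain, 1.57% passed, 0.858% as higher and 0.717% as lower at 6pm, the median log2 change was 0.00, and 50.4% of changes were positive. Leaving out 1 brain library of 6pm or 12pm in turn, 2 to 5 of the genes that rose and 1 or 2 of those that fell passed. The fewest were 2 that rose when 6pm replicate 3 was left out, and 3 that rose and 1 that fell when 6pm replicate 2 was.

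Brain levels of the 4 named genes, in CPM without a TMM factor, were far apart between 6pm and noon. ACUA013178 reached 111 and 96.6 CPM in 6pm brain replicates 2 and 3, against 12.0, 13.9 and 7.66 CPM in 12pm brain replicates 1, 2 and 3 (log2 change 3.18, edgeR adjusted p = 7.86e-05). ACUA013994 reached 35.9 and 39.5 CPM in the 6pm brain libraries, against 4.90, 2.93 and 4.82 CPM in those of 12pm (log2 change 3.12, edgeR adjusted p = 0.0403). In neither gene did 6pm and 12pm brain libraries overlap. ACUA012491 was at 4.77 and 5.17 CPM in the 6pm brain libraries, against 1312, 638 and 1282 CPM in those of 12pm (log2 change -7.80). ACUA019003 was at 1.36 and 1.66 CPM in the 6pm brain libraries, against 43.3, 39.0 and 40.8 CPM in those of 12pm (log2 change -4.76). The differences of these last genes did not pass (edgeR adjusted p = 0.0678 and 0.0847), although their libraries did not overlap either.

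A larger set of genes, chosen by values alone and given as a description, showed a gap of over 2 times between the lowest library of one clock time and the highest of the other. There were 90 such genes higher at 12am (0.826% of those tested) and 105 lower (0.964%). All 16 called genes were among them, and 60 and 83 had an unadjusted edgeR p under 0.05. These numbers follow largely from the choice, since the p-values test the same difference in the same libraries. Many stood at low levels. By their mean at 6am and 6pm, 52 of the 90 were under 5 CPM and 9 were over 100 CPM, while 26 of the 105 were under 5 CPM and 16 were over 100 CPM. Of all genes tested, 2.06% were under 1 CPM and 18.2% at 1 to 5 CPM. A further 9.46% were at 100 to 1000 CPM and 1.60% over 1000 CPM. Genes under 5 CPM include many that passed the low-count filter through 12am replicate 2, which was high for them. Of the 90, 65 had their highest mean at 12am and 17 at 6pm. Of the 105, 65 had their lowest mean at 12am and 37 at 6pm. The choice itself keeps 12pm from being the highest time of the 90 or the lowest of the 105. It thus favours an extreme at 12am, and these numbers are no separate result.

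Taken one by one, the midnight libraries gave different pictures. With 12am replicate 2 as the only midnight library, 1890 of 11085 genes (17.1%) differed from 12pm, 900 higher (8.12%) and 990 lower (8.93%; edgeR adjusted p under 0.05). With 12am replicate 3 alone, 41 of 10154 genes (0.404%) differed, 31 higher (0.305%) and 10 lower (0.0985%). A lone library is assumed in these fits to vary like those of the other clock times, so the counts describe that library and not midnight. Both fits use the same 12pm libraries. The 16 genes were called with these same 12am and 12pm libraries, so their passing again in either fit would be no separate evidence. In the fits of 1 midnight library with the 3 of 12pm and no other clock time, 1283 genes differed for 12am replicate 2, 910 higher and 373 lower, and 41 for 12am replicate 3, 30 higher and 11 lower. For 12am replicate 2 the more frequent direction thus depended on whether the 6am and 6pm libraries were fitted.

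Set beside the range of the 3 noon libraries, gene by gene, 12am replicate 2 lay above the highest by over 2 times for 2405 of 10890 genes (22.1%) and below the lowest by over 2 times for 1350 (12.4%). For 12am replicate 3 these numbers were 248 (2.28%) and 1235 (11.3%). At a distance of over 4 times, 12am replicate 2 had 799 genes above and 201 below, and 12am replicate 3 had 37 above and 742 below. In the first library most far genes were above noon, in the second below. Without 12am replicate 2, 10154 genes passed the low-count filter, so some of the 10890 were kept through that library.

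From 5 CPM up, the difference of 12am replicate 2 from noon followed the level of the gene. Genes were grouped by their mean CPM in the 6am and 6pm libraries, which are in neither group, and differences were taken in log2(CPM + 1) against the mean of the 12pm libraries. The median difference of 12am replicate 2 was 1.94 for the 224 genes under 1 CPM and 1.61 for the 1982 genes at 1 to 5 CPM. It was 0.37 for the 3785 genes at 5 to 20 CPM and -0.58 for the 3695 genes at 20 to 100 CPM. It was -1.10 for the 1030 genes at 100 to 1000 CPM and -0.82 for the 174 genes over 1000 CPM. Thus, by the median, genes at 5 to 20 CPM stood above noon and genes of higher level below it. However, a gene could pass the low-count filter through 1 library. Of the genes under 1 CPM, 220 were tested without 12am replicate 3 and 16 without 12am replicate 2. At 1 to 5 CPM these numbers were 1976 and 1347. The filter therefore largely sets the median under 1 CPM, and in part that at 1 to 5 CPM. Neither of these medians is read as part of a trend with level.

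For 12am replicate 3, with the same limit of the filter under 5 CPM, the medians were -0.53, -0.41, -0.16, 0.05, 0.10 and 0.33, from the lowest to the highest level. They ran the other way and over a narrower range. Noon libraries differed among themselves in this way too. The medians of 12pm replicate 3 against the other 2 noon libraries went down with level, at 0.51 for genes under 1 CPM and -0.36 for genes over 1000 CPM, while those of 12pm replicate 2 went up, at -0.26 and 0.27. Without the TMM factor the medians of 12am replicate 2 were 2.53, 2.21, 1.03, 0.11, -0.39 and -0.10, so the group at 20 to 100 CPM changed sign. Those of 12am replicate 3 were then -0.58, -0.51, -0.37, -0.19, -0.15 and 0.08, and its groups at 20 to 100 and 100 to 1000 CPM changed sign.

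**Figure D4:**
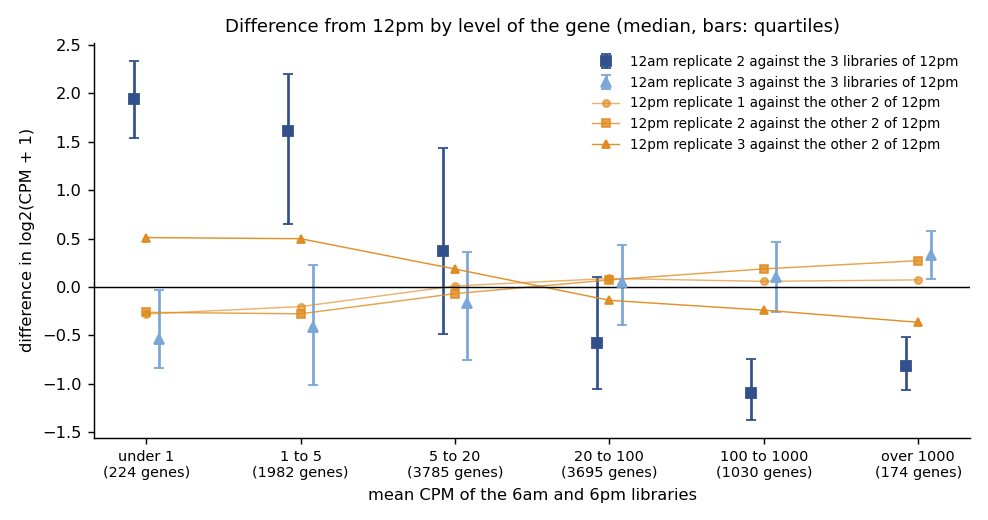
Median difference from noon in log2(CPM + 1) for 6 groups of genes by their mean CPM at 6am and 6pm, for each 12am library (blue, bars show quartiles) and for each 12pm library against the other 2 (orange). The medians of 12am replicate 2 run between 1.94 and -1.10 and those of 12am replicate 3 between -0.53 and 0.33. Under 5 CPM the genes include many that passed the low-count filter through 12am replicate 2.

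The calls made with 12am replicate 2 as the only midnight library followed the same groups. The limit set by the low-count filter under 5 CPM holds for these shares too. Of the tested genes at 1 to 5 CPM, 11.6% were called higher and 0.405% lower, and at 5 to 20 CPM 12.4% higher and 1.61% lower. At 20 to 100 CPM the shares were 4.38% higher and 11.1% lower. At 100 to 1000 CPM they were 0.777% higher and 43.9% lower, and over 1000 CPM 2.30% higher and 33.9% lower. The calls made with 12am replicate 3 alone were few beside these, and their split over the groups is not read here. 12am replicate 3 also had fewer reads outside genes and fewer genes detected than 12am replicate 2, and the part of these measures in the calls was not tested.

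**Figure D5:**
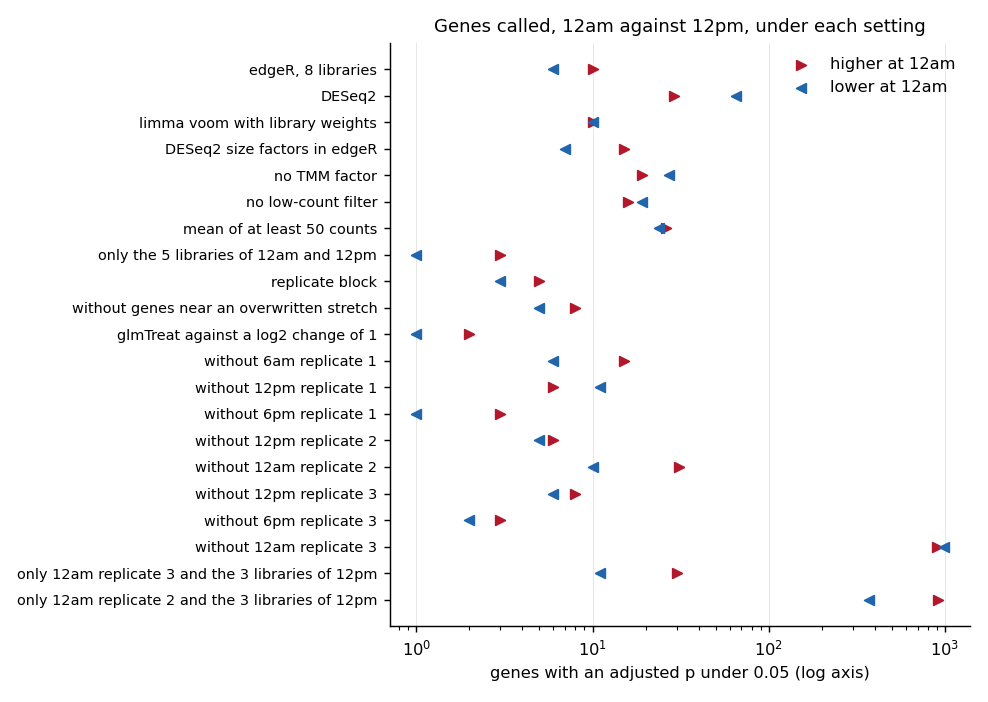
Number of genes called higher (red) and lower (blue) at 12am than at 12pm on a log axis, for the edgeR fit of 8 libraries and each alternative. The count is 16 in the fit of 8 libraries, 1890 without 12am replicate 3 and 4 without 6pm replicate 1.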

How the data were processed

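RNA from *Anopheles culicifacies* olfactory tissue was turned into NEBNext Ultra II libraries, per the labels' protocols. The values the authors deposited are raw counts of reads in each gene, with 1 file for each library analysed here. The submitters' processing notes name bcl2fastq, FastQC, STAR and HTSeq; their versions, the genome build, the annotation and the strand setting were not given in the sources used here, so counts of near-identical, overlapping and antisense genes are uncertain. Lines naming no gene took 57.6 to 73.7% of the reads per library compared and were left out.

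Stretches of 14 of the 15 *Anopheles* files were overwritten. A gene unreadable in any file was dropped, 245 of 14729 identifiers (1.66%). Since single digits may have changed unnoticed, an alternative left out genes within 1024 bytes before a stretch.

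Depth was 1193151 to 2992698 reads in genes per library compared. The 8 olfactory libraries were fitted with edgeR 4.0.16 in R 4.3.3 (TMM, filterByExpr, robust quasi-likelihood F-test, clock time as factor), contrast 12am minus 12pm, Benjamini-Hochberg adjusted over all genes tested, threshold 0.05. Log2 changes use the default prior count of 0.125, and SEs, which are approximate, divide that change by the root of F. P-values set a difference against the spread between these libraries, estimated over the clock times together. That estimate can fall short of the spread at midnight. There 16.4% of genes differed by over 4 times between the libraries, against 1.15 to 3.97% at noon.

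The comparison, its lists and the rules were chosen with earlier results of these data known. Named genes passed, had no overlap between 12am and 12pm libraries and at least 5 CPM at the higher time, and had the largest difference in log2 CPM (prior count 2), 2 per direction; the most counted gene was added. The brain reading was chosen after the olfactory calls were seen. Brain levels carry no TMM factor. Alternatives were DESeq2 1.42.0, limma 3.58.1 (voom with library weights), other scalings and filters, the replicate block, fewer libraries and a log2 change of at least 1. Python 3.11.15 with numpy 2.4.6, pandas 2.3.3 and matplotlib 3.10.9 was used for the rest. The gene table at hand covers *Aedes aegypti* only and matched 0 ACUA identifiers.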

Additional observations from a re-analysis of the deposited data

How the results depend on the processing

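The count of 16 genes was 94 with DESeq2 (29 higher and 65 lower at 12am, 14 of the 16 among them), 50 with a mean of at least 50 counts, 46 without the TMM factor, 35 without a low-count filter, 8 with the replicate block, 4 with the 5 libraries of 12am and 12pm alone and 3 against a log2 change of 1. It was 20 with limma's library weights (10 higher, 10 lower, 12 shared) and 22 with DESeq2 size factors (15 higher, 7 lower). It was 13 without genes near an overwritten stretch. The library weights were 0.308 and 0.302 for 12am replicates 2 and 3, against 3.29, 1.99 and 0.610 for 12pm replicates 1, 2 and 3. A group of 2 libraries gets nearly equal weights, as at 6pm (1.64 and 1.64). The weights therefore cannot tell which 12am library was farther off. Leaving out 1 library gave 4 to 1890 genes. The 2 fits of 4 libraries, added after seeing the data, gave 41 and 1283. Replicate numbers were not taken to pair the libraries, since the labels do not say that they mark a shared batch or day. Deviations of same-numbered libraries correlated at -0.397 (replicate 2) and -0.574 (replicate 3), across genes that are not independent, which cannot decide this. The 8 genes left by the block were all among the 16. The cause of these shifts was not tested. Among the named genes only ACUA019003 lost its call, in 4 of the 19 alternatives that gave an adjusted p for it, and DESeq2 gave none.

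Leaving out 1 library moved the 12am minus 12pm difference between -770 and 1557 genes detected at equal depth (393 with all), between -0.599 and 3.31 percentage points for the 10 most counted genes (1.35 with all) and between 4.71 and 11.9 points for reads outside genes (8.33 with all). The correlation of the 12am libraries (0.712) was 0.828 across genes averaging 50 counts or more and 0.609 by Spearman. The mean of 12am replicate 2 with noon (0.756) was 0.830 and 0.657, and that of 12am replicate 3 with noon (0.910) was 0.895 and 0.893. Depth limits the precision of the midnight values of ACUA019003, which rest on 5 and 6 counts, and of ACUA012491, which rest on 38 and 2.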
